A study of Caenorhabditis elegans with 2 samples.

Results

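Small nucleolar RNA (snoRNA) genes were examined for peaks of LIN-13, a synMuv B protein with zinc fingers, in chromatin from whole Caenorhabditis elegans larvae. All 346 nuclear genes of biotype snoRNA in the Ensembl annotation of WBcel235, out of 46890 nuclear genes, were taken. Each was widened by 200 bp on both sides and scored by the highest peak whose summit fell inside. Of the 346 genes, 178 lay within an intron of a protein-coding gene and 168 lay outside introns. Membership used the annotation alone, and no peak value entered it. The genes were 54 to 344 bp long, with a median of 130 bp.

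The chromatin came from 2 biological replicates of strain OP49, genotype unc119(ed3) with the insertion wgIs49(lin-13::TY1 EGFP FLAG; unc119), grown to the L4 larval stage and of mixed sex. Both replicates carried the tagged lin-13 transgene together with the endogenous gene, and the immunoprecipitation was aimed at the tagged protein. No strain without the tag was among the samples, so signal from other sources cannot be told apart from it. There was 1 group and no second condition. Whole animals were used, so a peak in few tissues and a weaker peak in all tissues cannot be told apart. Nothing in the labels gives an animal count per replicate, and the deposited peak lists held no read counts, so sequencing depth was unknown.

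snoRNAs are short RNAs of the nucleolus that guide chemical modification of ribosomal RNA. Box C/D snoRNAs pair with fibrillarin and its partners and direct 2′-O-methylation, and H/ACA snoRNAs pair with dyskerin and its partners and direct pseudouridylation. Many worm snoRNAs sit inside introns and can be cut out of the host transcript. Others have a start of their own. Some of these are made by RNA polymerase III from tRNA-like A and B boxes placed before the RNA. Some have upstream elements like those of spliceosomal snRNA genes.

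The stretch before the RNA is shown for 8 of the 20 snoRNA genes with the highest peaks, because most summits lay there (6 of these 8, the others at most 15 bp inside the RNA) and because that stretch differed in kind between genes. Each line runs 5′ to 3′ on the gene's own strand, from 120 bases before the annotated 5′ end to 20 bases into the gene, in the RefSeq copy of the WBcel235 genome. In the first 4, capitals mark the letters GTTCNANNC, the B box pattern of tRNA genes. Y38F2AR.14 (chrIV:2408616-2408755, minus strand), Y43F8C.22 (chrV:19643168-19643307, minus strand) and F55A11.10 (chrV:11782872-11783011, plus strand) are intronic, and Y75B12B.12 (chrV:15191074-15191213, minus strand) lies outside introns.
Y38F2AR.14: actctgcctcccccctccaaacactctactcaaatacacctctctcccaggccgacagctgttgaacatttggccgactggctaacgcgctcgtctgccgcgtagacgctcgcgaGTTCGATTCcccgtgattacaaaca
Y43F8C.22: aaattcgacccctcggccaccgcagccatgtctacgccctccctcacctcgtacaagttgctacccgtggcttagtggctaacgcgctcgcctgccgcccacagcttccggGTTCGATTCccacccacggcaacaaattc
Y75B12B.12: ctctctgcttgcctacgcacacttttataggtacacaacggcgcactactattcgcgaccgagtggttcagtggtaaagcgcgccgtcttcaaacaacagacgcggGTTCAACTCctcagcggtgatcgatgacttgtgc
F55A11.10: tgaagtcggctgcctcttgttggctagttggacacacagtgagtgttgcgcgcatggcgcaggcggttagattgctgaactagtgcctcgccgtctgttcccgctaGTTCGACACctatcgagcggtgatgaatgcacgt

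In the next pair, capitals mark GGAACCCG or TGTCGG, letters found before many snRNA genes. Y53F4B.47 (chrII:15025874-15026013, minus strand) lies outside introns and Y55F3BR.9 (chrIV:867114-867253, minus strand) is intronic. The last pair holds neither pattern and has no capitals, with F09G2.14 (chrV:7196561-7196700, minus strand) outside introns and W08G11.6 (chrV:16370099-16370238, plus strand) in an intron. Both genes of the last pair do hold TGGCNNA, the A box letters counted further below. All these patterns were chosen after the data were seen, and a match is a description of letters, not evidence of a working site. A missing match likewise does not show that such a site is absent.
Y53F4B.47: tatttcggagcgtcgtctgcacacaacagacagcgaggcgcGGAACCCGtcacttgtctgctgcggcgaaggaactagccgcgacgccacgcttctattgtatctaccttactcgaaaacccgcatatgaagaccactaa
Y55F3BR.9: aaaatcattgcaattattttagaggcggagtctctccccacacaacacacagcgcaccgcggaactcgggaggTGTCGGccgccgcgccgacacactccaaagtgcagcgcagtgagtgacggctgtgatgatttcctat
F09G2.14: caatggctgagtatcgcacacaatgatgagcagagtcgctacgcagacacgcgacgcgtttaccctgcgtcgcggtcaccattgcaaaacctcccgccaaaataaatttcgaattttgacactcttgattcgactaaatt
W08G11.6: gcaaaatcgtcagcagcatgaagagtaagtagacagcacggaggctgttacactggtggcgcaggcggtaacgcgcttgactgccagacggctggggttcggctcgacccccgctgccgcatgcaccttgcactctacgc

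LIN-13 summits were found at snoRNA genes inside and outside introns alike, and lay mostly just before the RNA. The list that passed the authors' irreproducible discovery rate (IDR) step, made from the pooled replicates, had a summit at 83 of 346 widened snoRNA genes, which is 24.0% (exact Clopper-Pearson 95% interval 19.6 to 28.8%, for counting error only). Over all nuclear tiles as long as the median widened snoRNA gene (530 bp), 1.11% held an IDR summit. Nuclear genes of all other biotypes, widened in the same way, had one in 4.54% of cases. These genes were of all lengths and kinds, so their windows were not matched to those of snoRNA genes. Distinct summits at these genes also numbered 83, as F25H2.15 held 2 while C51F7.3 and C51F7.4 shared 1. Counts by gene use the highest summit of each gene, so the shared one counts for both. The 83 distinct summits made up 3.91% of the 2121 nuclear IDR summits. They lay in the 0.182% of nuclear bases covered by widened snoRNA genes, so the share of summits was 21.5 times the share of bases. No test was run, because there is 1 group and genes of the same animals are not replicates.

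snoRNA genes stood between tRNA and snRNA genes among the classes of small RNA genes. Of 612 tRNA genes, 36.6% had an IDR summit (interval 32.8 to 40.6%), and of 129 snRNA genes, 20.2% had one (13.6 to 28.1%). The interval of the snoRNA share overlapped that of the snRNA share and lay below that of the tRNA share. Of 261 miRNA genes, 4.60% had an IDR summit, and of 7764 genes of biotype ncRNA, 6.04%. At none of the 83 snoRNA genes did the highest summit lie within 200 bp of a tRNA gene or an snRNA gene.

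**Figure D1:**
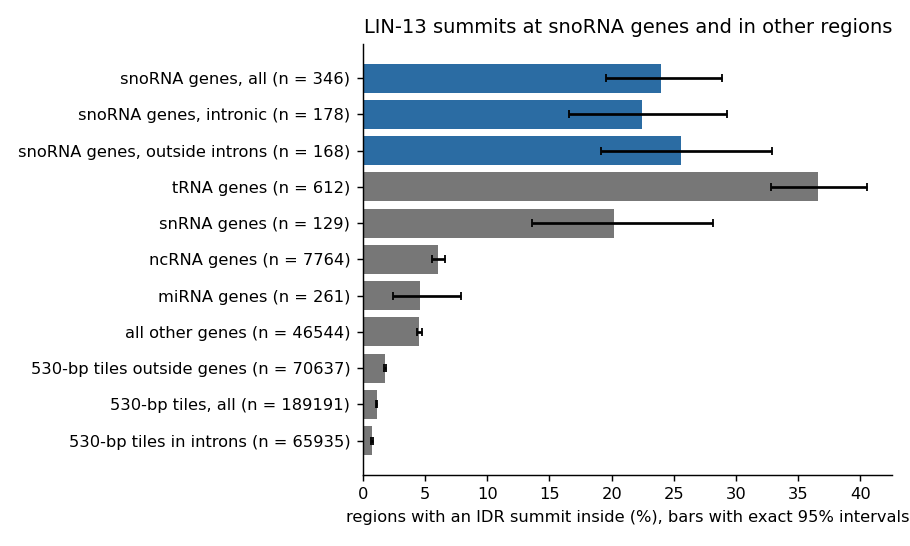
Share of regions with an IDR summit inside (x axis, percent), with bars from 0 and exact 95% intervals, for snoRNA genes (blue) and for other gene classes and genome tiles (grey). snoRNA genes (24.0%) sit below tRNA genes (36.6%), near snRNA genes (20.2%) and above all 530-bp tiles (1.11%).

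Genes inside introns had summits about as often as genes outside. Of the 178 intronic snoRNA genes, 40 had an IDR summit, which is 22.5% (16.6 to 29.3%), while 0.726% of tiles centred in introns of protein-coding genes had one. Of the 168 genes outside introns, 43 had one, which is 25.6% (19.2 to 32.9%), while 1.76% of tiles centred outside protein-coding genes had one. The intervals of the intronic and outside shares overlapped over most of their length.

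Among intronic genes, 150 had a host on their own strand, and 29 of these had a summit (19.3%, 13.3 to 26.6%). The other 28 had a host on the opposite strand only, and 11 of them had a summit (39.3%, 21.5 to 59.4%). Outside introns, 5 of the 44 genes that touch a protein-coding exon had a summit (11.4%, 3.79 to 24.6%), and 38 of the 124 that touch none (30.6%, 22.7 to 39.6%). The intervals within each pair overlapped, which does not show that the shares are alike. With only same-strand hosts counted as intronic, the shares were 19.3% in introns and 27.6% for the other 196 genes.

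The 178 intronic genes fell into 157 hosts. Of these hosts, 40 held a snoRNA with a summit, and only 17 held more than 1 snoRNA. None of the 17 had more than 1 snoRNA with a summit, which the other hosts could not have. Among the 17, pdl-1 alone had a snoRNA with a summit, 1 of its 2. The most crowded host was nol-56, which itself encodes a core protein of box C/D particles. None of its 4 snoRNA genes had an IDR summit, nor did any of the 3 in rpl-6 or the 3 in top-2, which encode a large ribosomal subunit protein and a topoisomerase. Hosts with rpl or rps symbols, those of ribosomal protein genes, numbered 13 and held 19 intronic snoRNA genes. Of the 19, 1 had an IDR summit (5.26%, 0.133 to 26.0%), C16A3.11 in rps-13. That interval took in 22.5%, the share of all intronic snoRNA genes. Any ribosomal protein genes under other symbols were not counted. This grouping by host was made after the values were seen.

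By chromosome, the share with a summit was lowest on X, at 4 of 33 genes (12.1%), where 1.07% of tiles held an IDR summit, and on III, at 8 of 54 (14.8%), where 1.68% of tiles did. It was highest on V, at 18 of 55 (32.7%), where 0.661% of tiles did. The chromosomes thus came in another order for snoRNA genes than for tiles, with III highest and V lowest among tiles. Between these lay I with 17 of 74 genes (1.38% of tiles), II with 20 of 71 (1.20%) and IV with 16 of 59 (0.948%). The interval on X (3.40 to 28.2%) overlapped that on V (20.7 to 46.7%).

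The relaxed lists, which hold 30000 peaks each and include weak ones, reached more snoRNA genes. The pooled relaxed list had a summit at 188 of the 346 genes (54.3%), 94 intronic and 94 outside, while 15.0% of all nuclear tiles held one. The replicate 1 list reached 184 genes, the replicate 2 list 188, and 147 genes had a summit in both. For 114 genes no list had a summit. The 105 genes with a pooled relaxed summit but no IDR summit had a median signal value of 17.8, from 8.19 to 36.5, all below the lowest signal in the IDR list, 40.1.

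Peaks at snoRNA genes were of middle to upper height within the IDR list. Signal values here are those of the authors' peak caller, with no scaling stated, and serve to rank peaks within a list. The median was 73.5 at the 83 snoRNA genes, from 41.9 to 162.5, while it was 56.04 over the other nuclear IDR peaks. The median was 68.8 for intronic genes (41.9 to 149.2) and 73.6 for genes outside introns (44.4 to 162.5). With the nuclear IDR peaks cut into 4 equal parts from the highest signal down, 34 of 530 lay at snoRNA genes (6.42%), then 30 (5.66%), 10 (1.89%) and 9 of 531 (1.69%). So 64 of the 83 lay in the upper 2 of the 4 parts, although none of the 83 ranked among the 83 highest peaks of the list.

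The 20 highest ran from rank 84 to rank 297 of the IDR list, with signal values of 98.5 to 162.5. Of these, 8 were intronic and 12 lay outside, and 17 had their summit before the 5′ end. The highest was Y53F4B.47, an 80-bp gene outside introns on chromosome II, with a signal of 162.5 pooled, 98.2 in replicate 1 and 57.1 in replicate 2. Its peak spanned chrII:15025894-15026059, with the summit 77 bp before the 5′ end and 144 bp from the nearest protein-coding 5′ end. It ranked 83 in replicate 1 and 173 in replicate 2, high in both lists.

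F59C6.15, outside introns on chromosome I, had 159.9 pooled, 90.6 in replicate 1 and 68.7 in replicate 2, with its summit 50 bp before the 5′ end. F25H2.15, also on chromosome I, had 111.3 pooled, 63.8 in replicate 1 and 47.0 in replicate 2, with its summit 37 bp before the 5′ end. Of its 25-base words, F59C6.15 shared 65.8% with F25H2.15, and F25H2.15 shared 63.6% with F59C6.15, while neither shared any with Y53F4B.47. With any other snoRNA gene the shares were 74.5% for F59C6.15, 66.2% for F25H2.15 and 44.6% for Y53F4B.47, so reads at them may be less certain in place. Over all 346 genes, 21 shared at least 10% of their words, 10 of them with a summit. Of the 325 that shared less, 73 had one.

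Y23H5B.10 gave a summit far from any protein-coding start. This gene outside introns on chromosome I had 150.5 pooled, 84.1 in replicate 1 and 68.0 in replicate 2. Its summit lay 10 bp before the 5′ end and 16187 bp from the nearest protein-coding 5′ end. T19B4.8 was likewise remote, at 4849 bp, with 114.7 pooled, 65.1 in replicate 1 and 51.0 in replicate 2. The B box letters stand before both genes.

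The highest intronic gene was Y38F2AR.14, in an intron of Y38F2AR.12. Its peak spanned chrIV:2408486-2408821 and had a signal of 149.2 pooled, 91.9 in replicate 1 and 57.7 in replicate 2. The summit lay 19 bp before the RNA and 1177 bp from the nearest protein-coding 5′ end, so it fell within the intron and not at a host promoter as annotated. Y43F8C.22, in an intron of Y43F8C.7, had 131.3 pooled, 67.2 in replicate 1 and 65.2 in replicate 2. Its summit lay 5 bp inside the RNA, close to the B box letters printed above.

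Y75B12B.12, outside introns, had 129.3 pooled, 85.2 in replicate 1 and 44.8 in replicate 2. Y55F3BR.9, in an intron of Y55F3BR.2 and on the opposite strand, had 125.8 pooled, 76.4 in replicate 1 and 60.2 in replicate 2, with its summit 7 bp before the RNA. Being on the opposite strand, it is not part of the transcript of that host.

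F09G2.14 had the widest gap in rank between the replicates among the 20. Its signal was 112.8 pooled, 34.3 in replicate 1 and 74.8 in replicate 2, at rank 1012 in replicate 1 and 83 in replicate 2. At 344 bp it is also the longest snoRNA gene annotated, and its summit lay 91 bp before the 5′ end and 245 bp from a protein-coding 5′ end. W08G11.6, in an intron of W08G11.3, had more even values of 109.0 pooled, 55.4 in replicate 1 and 50.6 in replicate 2.

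The remaining 9 of the 20 had pooled signals of 98.5 to 106.2. Outside introns these were T02E1.9 (106.2), M03D4.78 (105.8), Y53F4B.48 (104.8), Y74C9A.6 (102.4) and D2021.6 (99.0). In introns they were F55A11.10 in F55A11.6 (102.7), T03F7.8 in cutl-18 (100.6), C05D2.15 in madf-11 (98.7) and Y71D11A.7 in acsd-1 (98.5). F55A11.10 had its summit 57 bp from a protein-coding 5′ end, the nearest of the 20, and 51.3 in each replicate. Y71D11A.7 was uneven, with 66.3 in replicate 1 and 32.1 in replicate 2.

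**Figure D2:**
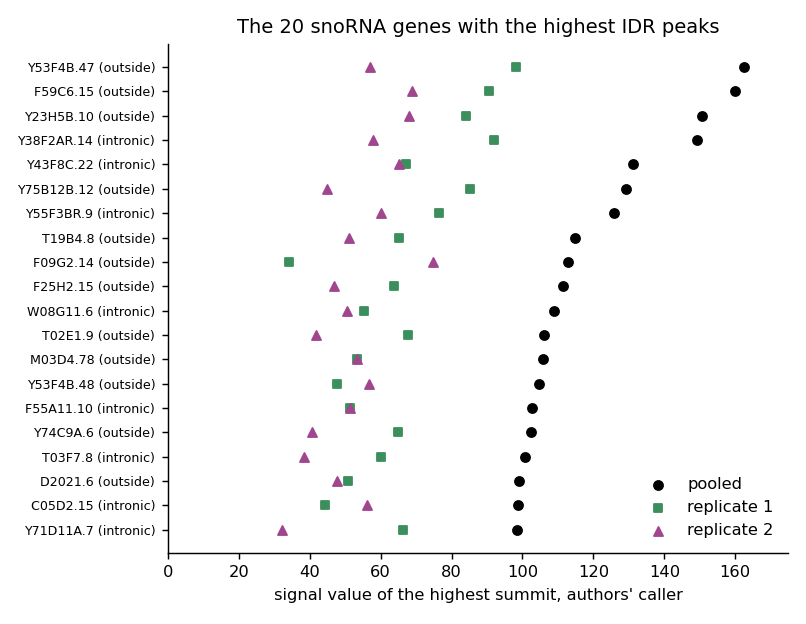
Signal value of the highest summit (x axis, authors' caller) at the 20 snoRNA genes with the highest IDR peaks (rows), in the pooled list (circles), replicate 1 (squares) and replicate 2 (triangles). Pooled values run from 98.5 to 162.5, and F09G2.14 has a higher value in replicate 2 (74.8) than in replicate 1 (34.3).

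At the lower edge of the IDR list, the lowest snoRNA genes inside were C16A3.11 (41.9, rank 1981), C14C10.8 in ril-2 (42.4) and smy-2 in C33A12.3 (42.8). The highest genes below it were R12E2.17 in an intron of rpn-8, with 36.5 pooled, 27.5 in replicate 1 and 6.83 in replicate 2, and Y49E10.36 in his-72, with 35.5 pooled, 22.6 in replicate 1 and 19.99 in replicate 2. Next came C24A1.8 in elf-1, with 33.8 pooled, 13.9 in replicate 1 and no summit in replicate 2. All 6 of these genes were intronic.

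Summits gathered just before the 5′ end of the RNA. The highest IDR summit lay at a median of 27 bp upstream (middle 50% from 48 bp upstream to 0), counted on the gene's strand. Of the 83, 61 lay upstream, 55 of them within 100 bp, 18 lay inside the gene and 4 beyond its 3′ end. The medians were 29 bp upstream in replicate 1 and 22 bp upstream in replicate 2. Intronic genes had a median of 25 bp upstream, with 30 upstream, 8 inside and 2 beyond, and genes outside introns a median of 34 bp, with 31, 10 and 2. Most IDR peaks were 336 bp wide (92.3%), and fragments were 150 to 350 bp per the labels, and both limit how closely a summit places the signal. Among the 105 genes with only a relaxed pooled summit, the median lay 35 bp inside the gene and 47 summits lay upstream.

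**Figure D3:**
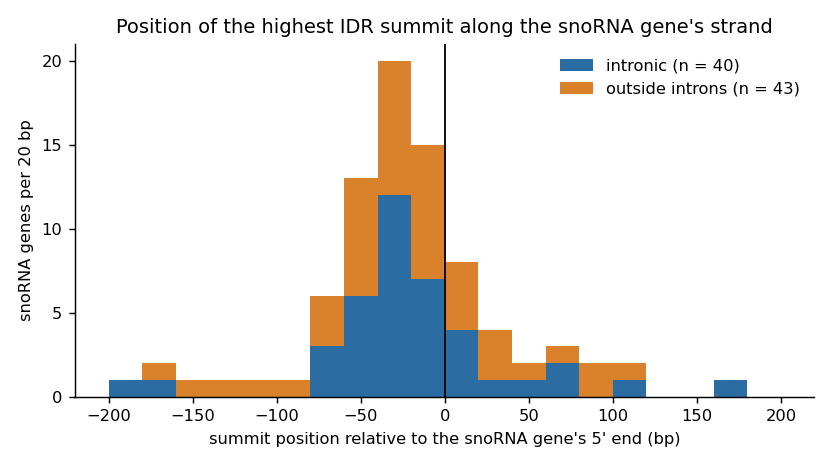
Number of snoRNA genes (y axis, per 20 bp) by the position of the highest IDR summit relative to the RNA's 5′ end (x axis, bp, negative is upstream), with intronic genes (blue) stacked under genes outside introns (orange). The tallest bins lie just upstream of 0, and the median over the 83 genes is -27 bp.

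Within 500 bp of a protein-coding 5′ end lay the highest summit of 23 of the 83 genes (27.7%), 10 intronic and 13 outside. Of all 2121 nuclear IDR summits, 53.3% lay that near. Within 1000 bp the share was 47.0% at snoRNA genes and 66.5% over all. The median distance at snoRNA genes was 1092 bp. Among the 218 snoRNA genes whose widened window was more than 500 bp from every protein-coding 5′ end, 50 had a summit, 22.9% (17.5 to 29.1%). That share lay within the interval of all snoRNA genes. Soft-masked repeats held the highest summit of 5 of the 83 genes (6.02%) and 17.6% of all nuclear IDR summits.

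The share with a summit was higher among snoRNA genes with certain letters before the gene. Searched on the gene's strand in the 140 bases shown above, GTTCNANNC was found at 38 snoRNA genes, and 24 of them had an IDR summit (63.2%, 46.0 to 78.2%). TGTCGG or GGAACCCG was found at 39 others, and 21 of them had a summit (53.8%, 37.2 to 69.9%). The remaining 269 had neither, and 38 of them had a summit (14.1%, 10.2 to 18.9%). No gene held both patterns. The interval of the last group lay below those of the other groups, but the letters were chosen with the peaks known, so this is a description without a test.

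The same order held inside and outside introns. With B box letters, 13 of 22 intronic and 11 of 16 outside genes had a summit. With snRNA-like letters, 11 of 19 and 10 of 20 had one, and with neither, 16 of 137 and 22 of 132. Median signal among genes with a summit was 84.7 with B box letters, 76.0 with snRNA-like letters and 67.0 with neither.

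**Figure D4:**
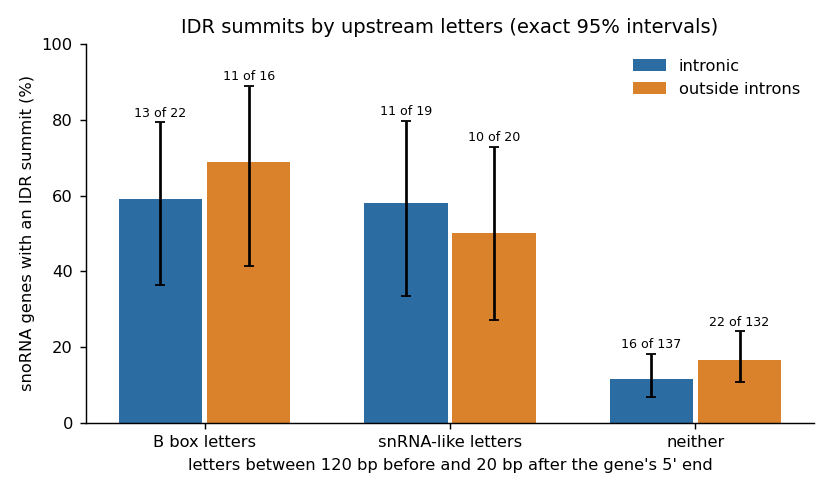
Share of snoRNA genes with an IDR summit (y axis, percent, bars from 0 with exact 95% intervals and counts above) by the letters found before the gene, for intronic (blue) and outside (orange) genes. Shares are 63.2% over both places with B box letters, 53.8% with snRNA-like letters and 14.1% with neither.

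Most copies of the letters in the genome carried no peak. Among 716229 nuclear tiles of 140 bp, read on 1 strand, 2.51% held the B box letters and 2.02% the snRNA-like letters, of which TGTCGG was in 1.96% and GGAACCCG in 0.0803%. Of the tiles with B box letters, widened to 530 bp, 1.51% held an IDR summit, and of those with snRNA-like letters, 1.13%, beside 1.11% of all tiles. Tiles at tRNA, snRNA and snoRNA genes were kept in, so these are not shares for the letters away from such genes. The share was 1.12% for TGTCGG and 2.43% for the rarer GGAACCCG (14 of 575 tiles). The B box letters were inside 587 of 612 tRNA genes, and the snRNA-like letters stood before 56 of 129 snRNA genes and were inside no tRNA gene.

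Summits sat at different places relative to the letters. The B box letters began at a median of 12.5 bp before the RNA, and the summit lay at a median of 23 bp before their start, within 50 bp of it in 22 of 24 genes. The replicate medians were 17 bp and 19.5 bp before it. The snRNA-like letters began at a median of 59 bp before the RNA, and the summit lay 39 bp after their start, within 50 bp in 15 of 21 genes, with replicate medians of 37 bp and 34 bp. The summit thus lay before the start of the B box letters and after that of the snRNA-like letters.

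Other features moved with the summits. The A box letters TGGCNNA, searched in the same 140 bases, were at 71 snoRNA genes, 33 of them with a summit (46.5%), and of the 275 without the letters 50 had a summit (18.2%). The letters were in 10.1% of tiles of 140 bp, and 1.07% of those tiles, widened to 530 bp, held an IDR summit, beside 1.11% of all tiles. They were inside 182 of 612 tRNA genes, far fewer than the B box letters, and were also chosen with the peaks known. A run of TTTT, the letters at which RNA polymerase III stops, lay within 20 bases after the 3′ end of 145 snoRNA genes (41.9%) and in 25.8% of 20-base tiles on 1 strand. It followed 55 of the 83 genes with a summit (66.3%) and 90 of the 263 without (34.2%).

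TTTT and the upstream letters went together. TTTT followed 33 of the 38 genes with B box letters, among them 23 of the 24 with a summit, and 21 of the 39 with snRNA-like letters. Genes with either kind of letters and TTTT had a summit in 36 of 54 cases (66.7%), and those with letters and no TTTT in 9 of 23 (39.1%). Genes with TTTT and no letters had one in 19 of 91 (20.9%), and those with none of these in 19 of 178 (10.7%, 6.55 to 16.2%). Even that last share exceeded 1.11%, the share of all tiles, and 4.54%, that of genes of other biotypes, whose windows were not matched in length. Its interval took in 6.99%, the share of protein-coding genes with a summit within 500 bp of an annotated 5′ end. That window is wider than most widened snoRNA genes, so the shares are not on equal terms. In that group, 8 of the 19 summits lay upstream of the RNA, 9 inside and 2 beyond. With either kind of letters, 35 of 45 lay upstream. Protein-coding starts were at most 500 bp away for 9 of the 19 (47.4%) and 8 of the 45 (17.8%). The part of such starts was not tested.

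Short genes had summits more often. Of 93 snoRNA genes under 100 bp, 39 had a summit (41.9%, 31.8 to 52.6%), and of 253 of 100 bp or more, 44 had one (17.4%, 12.9 to 22.6%). The median length was 103 bp with a summit and 133 bp without. The widened windows had a median GC content of 41.9% with a summit and 38.7% without. Genes with B box letters and a summit had a median length of 75.5 bp, so length and letters overlapped, and their separate parts were not tested.

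Letters of the snoRNA class were found in a minority of genes. TGATGA in the first 20 bases with CTGA in the last 20, the box C and box D letters, was in 14 genes, 6 of them with a summit (42.9%, 17.7 to 71.1%). ACA in the last 6 bases, without both boxes, was in 78 genes, 20 of them with a summit (25.6%, 16.4 to 36.8%). The other genes matched neither pattern and were not put in a class. On both strands of the widened window, GAGAGAG was at 13 of the 83 genes with a summit (15.7%), 25 of the 263 without (9.51%) and 6.82% of tiles. GGTTCGA, the core of the B box, was at 9 (10.8%), 17 (6.46%) and 3.71%.

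The 83 genes were chosen by the IDR list, which rests on both replicates, so their ranks in each replicate are a description and not a separate check. Of the 83 genes with an IDR summit, 69 (83.1%, 73.3 to 90.5%) had a summit among the highest peaks of both replicates, taking as many from each as the IDR list holds. A further 8 had one in replicate 1 only, 3 in replicate 2 only and 3 in neither. Over all 2121 nuclear IDR peaks, with a window of 530 bp around the summit, the share in both was 60.9%. Peaks at snoRNA genes were also higher in the pooled list, with a median of 73.5 beside 56.04 over the other nuclear peaks, and the part of height in this share was not tested. Replicate 1 values were higher by a median ratio of 1.25 at these genes, beside 1.29 over 2077 nuclear IDR peaks, so a similar ratio was seen over the whole list. The summits of the replicates lay within 50 bp of each other at 62 of the 83 genes, at a median of 28 bp. The replicates were far apart at F47G4.9, with 10.7 in replicate 1 and 35.7 in replicate 2, and at C36E8.11, with 40.04 and 13.1, both picked after their values were seen.

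Across the 147 genes with a summit in both replicate lists, log10 signal in the replicates had a Pearson correlation of 0.78 and a Spearman correlation of 0.79. Within the 83 with an IDR summit these were 0.43 and 0.42, and within the 64 without, 0.19 and 0.22. The highest summit was taken in each list on its own, so the values of a pair can come from different peaks. The summits of a pair lay within 50 bp of each other at 88 of the 147 genes. Without an IDR summit this held at 26 of the 64, at a median distance of 78.5 bp. The split by IDR status also narrows the range of signal in each set. The part of either in the lower values was not tested. The points share the caller and the genome sequence, and no p-value is given across genes.

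**Figure D5:**
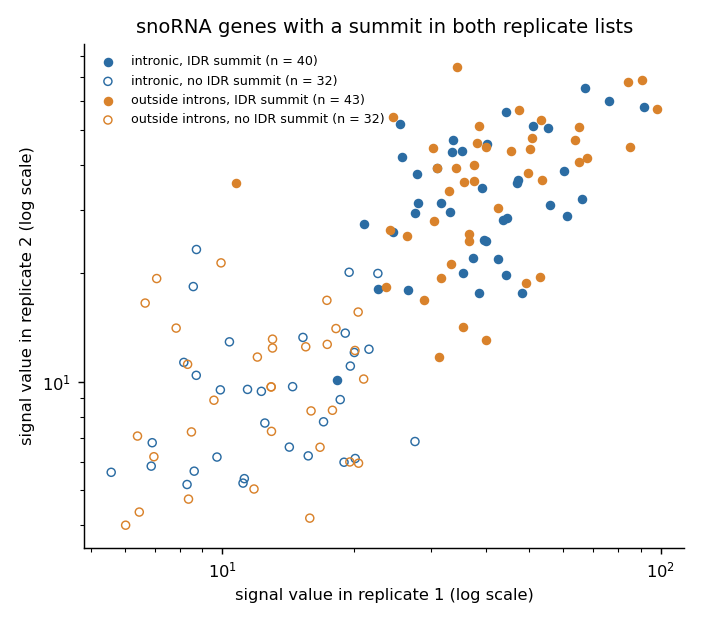
Signal value in replicate 2 (y axis, log scale) against replicate 1 (x axis, log scale) for the 147 snoRNA genes with a summit in both replicate lists, intronic (blue) or outside introns (orange), filled where the gene had an IDR summit. The 83 filled points sit mostly above and to the right of the 64 open ones.

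The protein partners of snoRNAs also had LIN-13 summits at their starts. Of 13 listed genes of snoRNA particles, their assembly and the nucleolus, 12 matched the annotation, and 11 of these had an IDR summit within 500 bp of an annotated 5′ end (91.7%, 61.5 to 99.8%). The share was 6.99% over 19973 protein-coding genes. The list is short, and 7 of its summits were shared with the 5′ end of 1 other protein-coding gene, so these cannot be assigned to one of the pair.

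Of the box C/D proteins, fib-1, the fibrillarin methyltransferase, had a signal of 100.1 pooled, 58.9 in replicate 1 and 37.1 in replicate 2, with the summit 74 bp from its 5′ end and shared. The scaffold proteins nol-58 and nol-56 had 68.0 and 56.9, and snu-13, which binds the RNA's kink-turn, had 71.8. Of the H/ACA proteins, dkc-1, the dyskerin pseudouridine synthase, had 101.9 pooled, 46.0 in replicate 1 and 55.8 in replicate 2. Y48A6B.3, the NHP2 counterpart, had 77.8 and garr-1, the GAR1 counterpart, 51.1.

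nola-3, the NOP10 counterpart, had no pooled summit in reach, but one of 19.0 in replicate 1 and one of 15.0 in replicate 2. The ATPases ruvb-1 and ruvb-2, which help assemble the particles, had 74.8 and 65.3. The nucleolar proteins dao-5 and nucl-1 had 53.4 and 46.1. nol-56 is thus a gene with a LIN-13 summit 235 bp from its 5′ end whose intronic snoRNA genes had none in the IDR list. Pooled values of the 11 ran from 46.1 to 101.9, within the range of the snoRNA genes.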

How the data were processed

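Chromatin immunoprecipitation sequencing of tagged LIN-13 in L4 larvae gave 2 replicates in 1 group, per the labels. The authors deposited narrowPeak lists for build ce11: relaxed lists of 30000 peaks, one per replicate and one of both pooled, and an IDR list of 2141 peaks, per the deposited listings. The signal value (column 7) is the deposited score of the authors' caller with no scaling stated, and was used mainly for ranks and comparisons inside a list. Values of the replicates are set side by side, and their ratios may reflect the scale of each list. Not given in the sources used here are the aligner, the caller, the IDR cutoff and all versions. Depth is unknown, as the lists hold no counts. Files on build ce10 were not used.

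The WBcel235 annotation of Ensembl release 115 and the RefSeq genome of that assembly were used, and RefSeq placed 345 of the 346 snoRNA genes at the same coordinates. Summits (start plus offset) were assigned to genes widened by 200 bp. A gene was intronic if it lay inside an intron of a protein-coding transcript on either strand. Nuclear tiles of 530 bp and other gene classes gave backgrounds. Shares carry exact Clopper-Pearson 95% intervals, which treat genes as independent and cover counting error only. No tests were run.

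Named genes were the 20 highest, the 5 highest in each place, the 3 highest below the IDR list and every matched gene of the snoRNA particle list. Members and lists were chosen with earlier results of these data known. The symbol naf-1 matched no gene. Alternatives were 1 replicate alone, stricter and looser lists, other widths, peak overlap, merged windows, distance from protein-coding 5′ ends, and other intron definitions. Work was done in Python 3.11.15 with SciPy 1.17.1, pandas 2.3.3, NumPy 2.4.6 and, for figures, matplotlib 3.10.9. The steps were tested on simulated data with planted summits.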

Additional observations from a re-analysis of the deposited data

How the results depend on the processing

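Of 55 alternative values, 37 stayed within the counting interval or 1.5 times the count, and 18 moved. For all snoRNA genes the share with a summit was 18.5% with a stricter list, the upper 2 of 4 equal parts of the IDR list by signal (0.555% of tiles), 29.5% with a looser list of 2 times as many pooled peaks (2.23% of tiles), 5.49% without widening and 29.2% with 500 bp. Outside introns it was 18.5% with the stricter list and 6.55% without widening, and in introns 4.49% without widening. No tile share is given for windows of these other widths, and it would change with width. The shares without widening and with 500 bp therefore cannot be set beside those of 530-bp tiles. Distinct summits numbered 19 without widening and 50 far from protein-coding 5′ ends. The share seen in both replicates was 50.6% with lists as short as the stricter one and 95.2% with lists as long as the looser one. The share near a protein-coding 5′ end was 6.02% within 200 bp and 47.0% within 1000 bp. Median signal was 35.8 without replicate 1 and 38.6 without replicate 2, on the scale of each replicate's own list. Splits by upstream letters, chosen after seeing the data, gave 63.2%, 53.8% and 14.1%. With 1 replicate alone the share was 22.5 to 22.8%. The fall without widening follows from summits lying before the RNA. No paired analysis was possible because there was 1 group. The ce10 lists were not run. Unknown depth and 336-bp peaks limit what the weak peaks and exact positions can show.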
